A study of Mus musculus with 6 samples.

Results

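Neutrophils make reactive oxygen species to kill microbes and are exposed to what they make. Their antioxidant defence has linked arms. Superoxide dismutases turn superoxide into hydrogen peroxide, and catalase, glutathione peroxidases and peroxiredoxins remove the peroxide. Glutathione and thioredoxin, small thiol carriers, supply the electrons and are reduced again with NADPH. Many genes of these arms carry antioxidant response elements, which the transcription factor NRF2 binds and its partner KEAP1 restrains. The 37 genes described here are a fixed list of such antioxidant, glutathione and thioredoxin genes, taken by their symbols from the 52636 genes listed in a table of RNA levels. All 37 were found, each in 1 row.

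The RNA came from primary bone marrow neutrophils of C57BL/6N mice aged 10 weeks, in 6 libraries, 3 labelled WT and 3 labelled KO. By the labels the KO mice were LRP5f/f/Lyz2Cre+, with floxed Lrp5 alleles and a Cre recombinase driven from the myeloid gene Lyz2, and the WT mice are given no allele or agent. LRP5 is a receptor-like membrane protein that the study examined as a carrier of polyunsaturated fatty acids, and the comparison asks how RNA levels differ without it. Lyz2-Cre acts in macrophages and monocytes as well as in neutrophils. The labels do not say whether each library was 1 mouse or a pool, and the p-values measure only the spread between these libraries, which may be technical.

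RNA levels are in TPM, a share of each library's transcripts that corrects for gene length, so levels can be compared between genes. The read counts behind a TPM value are unknown, and every error here is the spread between libraries. The libraries held 249841492 to 340580330 reads. Lrp5 itself was at 1.12 to 1.42 TPM in the libraries labelled WT and at 1.68 to 2.07 TPM in those labelled KO (p = 0.1 in a two-sided exact permutation test, the lowest value possible with 3 libraries a group). The targeted transcript was therefore not lower, and each direction below rests on the labels. Ribosomal RNA took 1.2% and 1.3% of the reads of WT replicates 1 and 2 but 3.3% of WT replicate 3, and 2.69% to 2.98% in KO. Introns took 7.78% to 9.0% of reads in WT and 10.6% to 11.2% in KO. Deviations of a library from the mean of all 6 followed transcript GC content across genes, downward in WT replicates 1 and 2 and upward elsewhere (Spearman correlations of −0.61 and −0.43 for the former pair, and of 0.33 to 0.44 for the other 4 libraries, over 8769 genes). WT replicate 3 thus stood with the KO libraries in ribosomal share and in this trend, and values with and without it are given below.

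The neutrophil markers Ly6g (920 to 1104 TPM over the 6 libraries), S100a8 and S100a9 were abundant in every library. Erythroid cells also carry much Prdx2, Cat and Blvrb, and macrophages much Hmox1. The summed level of 11 erythroid markers, 8 of them in the table, was 48.1 to 57.0 TPM in WT and 42.2 to 53.8 TPM in KO, nearly all of it globin. The erythroid genes Alas2, Slc4a1, Klf1 and Epor were under 1 TPM in every library, Klf1 at 0 in WT replicate 3. Directions in this list were mixed. Hba-a1 was lower in every KO library, at 8.50 to 10.3 TPM in WT and 6.55 to 8.10 TPM in KO. Slc4a1 (0.0799 to 0.137 TPM in WT, 0.164 to 0.267 TPM in KO) and Klf1 (at most 0.0371 TPM in WT, at least 0.0532 TPM in KO) were higher. In the rest the groups overlapped. For 11 monocyte and macrophage markers the sum was 114 to 130 TPM in WT and 124 to 142 TPM in KO. Of the 8 tested, 4 were higher in KO without overlap and none lower, where 17.4% of all genes tested were higher in this way. Ccr2 and Vcam1 had lower means in KO, with overlapping groups. Of those under the filter, Cx3cr1 was lower in every KO library, Mrc1 was higher, and Spic overlapped. Of 14 markers of immature neutrophils 8 were higher in KO without overlap and none lower, and of 12 markers of mature neutrophils 7 were lower and none higher, where 17.4% and 12.3% of all genes tested were higher and lower in this way. Their sums overlapped, at 72091 to 79411 TPM in WT and 75046 to 79173 TPM in KO for the immature list and 38112 to 42213 and 36766 to 38122 TPM for the mature list. Single genes weigh heavily in these sums. Ngp of the immature list had means of 36517 TPM in WT and 33162 TPM in KO, and Retnlg of the mature list 20804 and 20446 TPM. Summed markers were 11.3 to 12.9 TPM in WT and 11.1 to 12.2 TPM in KO for B cells, 10.3 to 12.8 and 13.2 to 14.5 TPM for eosinophils and basophils, 11.2 to 13.1 and 15.4 to 17.0 TPM for T and NK cells, and 3.10 to 4.41 and 4.88 to 5.65 TPM for platelets. Most of the T and NK cell sum was Cd3d, with means of 10.1 TPM in WT and 13.9 TPM in KO. Cd3e, Cd3g and Klrb1c had lower means in KO, and Nkg7 and Ncr1 higher. For eosinophils and basophils, Prg2 had means of 1.02 TPM in WT and 2.79 TPM in KO, and Siglecf 8.27 and 8.47 TPM. Mcpt8 and Ms4a2 had lower means in KO, and Epx, Il5ra and Cpa3 higher. The part of these markers in the differences below was not tested. In bulk RNA, fewer cells of a type and less RNA per cell cannot be told apart.

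Only genes that averaged 1 TPM or more were tested, which left 32 of the 37. Of these, 12 had a mean of at least 100 TPM and 13 a mean under 10 TPM. The 5 most abundant, Prdx5, Msrb1, Txn1, Mgst1 and Gsr, made up 74.2% to 77.1% of the summed TPM of the 37 genes in the 6 libraries, and Prdx5 alone 29.7% to 32.7%. The 5 genes under the filter were Gstm5 (0.0300 to 0.214 TPM), Prdx4 (0.573 to 0.796 TPM), Gpx3 (0.584 to 0.951 TPM), Mgst3 (0.776 to 1.37 TPM) and Txnrd2 (0.382 to 1.49 TPM), so the secreted glutathione peroxidase, the peroxiredoxin of the endoplasmic reticulum and the mitochondrial thioredoxin reductase stayed under 2 TPM in every library.

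**Figure D1:**
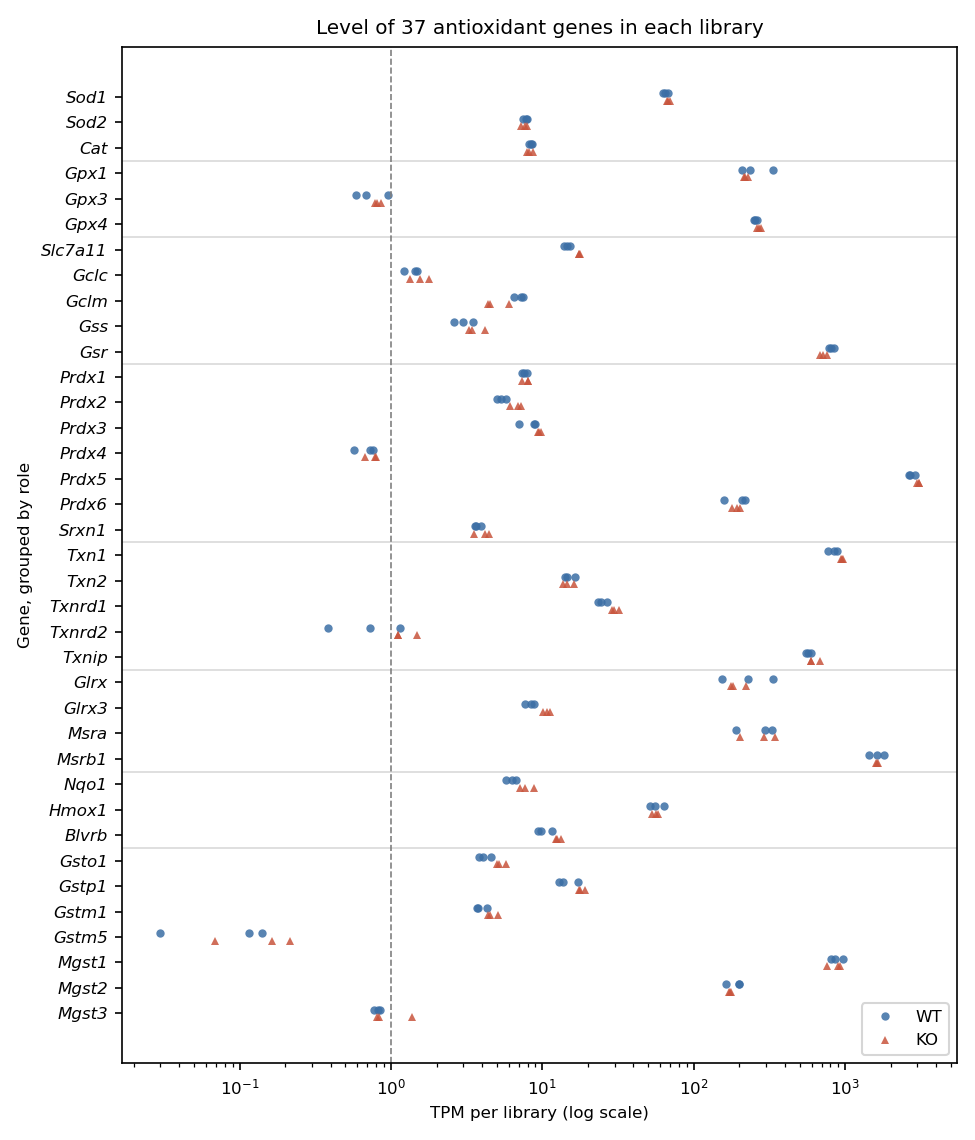
TPM of the 37 genes in each library (log axis), with circles for the 3 WT and triangles for the 3 KO libraries, grouped by role and with a dashed line at 1 TPM. Prdx5, Msrb1, Txn1, Mgst1 and Gsr lie at the right, and Gstm5 at the left, in both groups.

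KO and WT libraries were compared with limma on log2(TPM + 1), a scale that understates the change of low genes, with Benjamini-Hochberg adjustment over all 9775 genes tested. None of the 32 genes passed an adjusted p of 0.05, where 0.532% of all genes tested did (52 genes). The lowest adjusted p among the 32 was 0.104. At an unadjusted p under 0.05, limma gave 12 of the 32 (37.5%), 10 higher and 2 lower in KO, against 23.5% of all genes tested. By direction, 31.2% of the 32 were higher against 14.4% of all genes, and 6.25% were lower against 9.12%. This count depended on the libraries used. The number higher in KO was smaller with any library but WT replicate 3 left out, and larger without WT replicate 3. The smallest are given next, with the share of all genes, which was smaller too. Without WT replicate 2, 6 of the 32 were higher and 3 lower (9.01% and 6.03% of all genes), and without KO replicate 2, 4 were higher and 1 lower (8.72% and 5.08%). Against WT replicate 3 alone, 4 were higher and 5 lower (7.54% and 8.38% of all genes). In 14 of the 32 genes the KO and WT libraries did not overlap, 12 with KO higher and 2 with KO lower. That is 43.8%, against 29.7% of all genes tested, or 37.5% against 17.4% for KO higher and 6.25% against 12.3% for KO lower.

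The differences were small. The median log2 fold change, KO minus WT (given below with its standard error, SE), was 0.085 over the 32 genes and 0.040 over all genes tested, 21 of the 32 were above 0 (58.8% of all genes tested were), and the furthest from 0 was −0.44. In a simulation of this comparison with 3 libraries a group, 41% of changes of 0.5 on the log2 scale passed the adjusted threshold, and smaller changes were not simulated. Its noise was independent between genes and held no trend shared by libraries, such as that with GC content. The share recovered may therefore differ in these libraries.

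**Figure D2:**
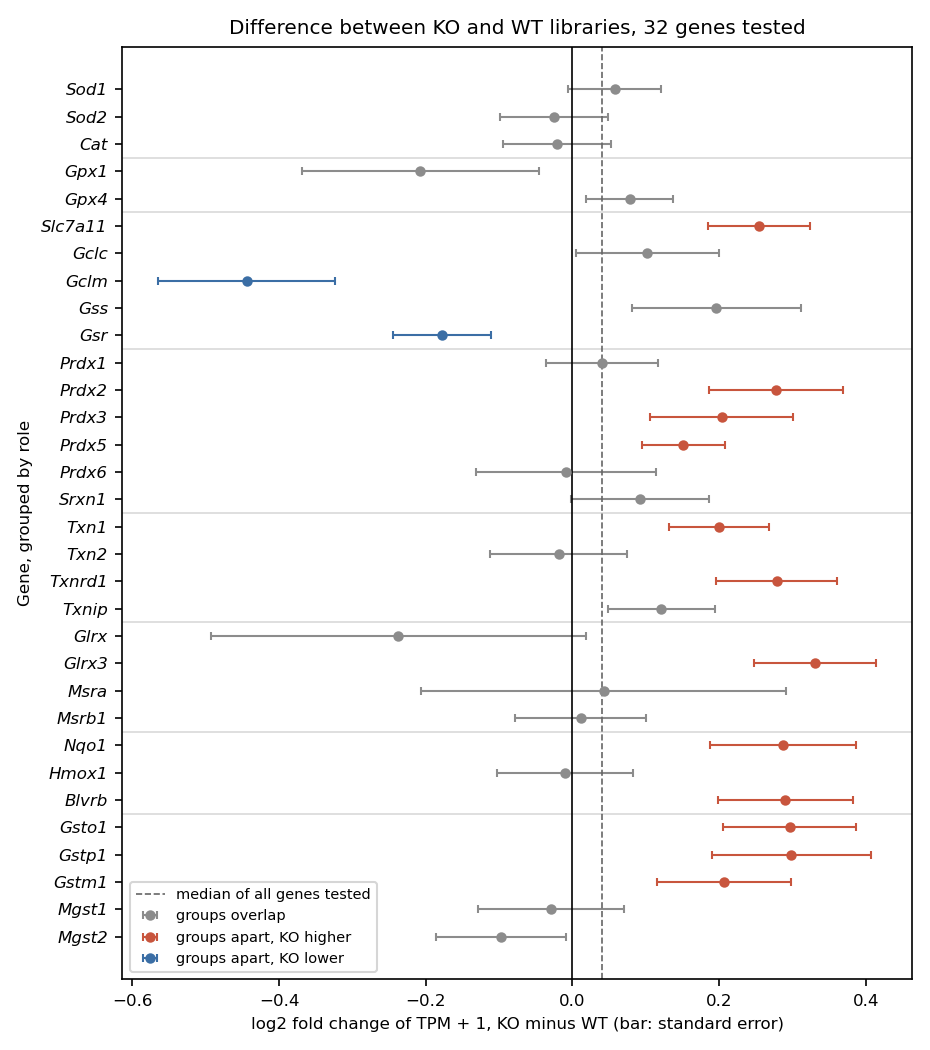
log2 fold change of TPM + 1, KO minus WT, for the 32 genes tested, with bars for the standard error from limma and a dashed line at the median of all genes tested (0.040). Colour marks the 12 genes with KO above every WT library, the 2 with KO below and the 18 whose groups overlapped.

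In the first arm, the superoxide dismutases and catalase, no gene separated the groups. Sod1, the copper and zinc dismutase of the cytosol, was at 67.6, 63.1 and 64.7 TPM in the WT and 67.3, 69.2 and 66.9 TPM in the KO libraries. Sod2, the manganese dismutase of mitochondria, was at 7.22 to 7.92 TPM and catalase (Cat), which splits hydrogen peroxide in peroxisomes, at 7.88 to 8.70 TPM over the 6 libraries. In each of these genes the groups overlapped, and the log2 fold changes lay between −0.025 and 0.058. Sod1 stood 8.11 to 9.33 times above Sod2 in TPM.

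Of the glutathione peroxidases, which reduce peroxides at the expense of glutathione, Gpx1 and Gpx4 were abundant. Gpx4, which acts on lipid peroxides in membranes, was at 252, 253 and 262 TPM in WT and 269, 278 and 261 TPM in KO. The KO libraries lay at or just above the WT range, with 1 of them inside it. Gpx1, the general cytosolic peroxidase, was at 236, 208 and 335 TPM in WT and 218, 228 and 215 TPM in KO. WT replicate 3 alone was high, and the other 5 libraries lay within 208 to 236 TPM. Gpx3 was under 1 TPM throughout.

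The genes that make and recycle glutathione lay on both sides of 0. Slc7a11 (chromosome 3, 50168858 to 50247535, minus strand, NCBIM37) encodes the exchanger that imports cystine, the source of the cysteine in glutathione. It was at 15.3, 14.6 and 13.9 TPM in WT and 17.4, 17.5 and 17.8 TPM in KO. Every KO library was above every WT library, and the 3 KO values were nearly equal. The means were 14.6 ± 0.665 and 17.6 ± 0.233 TPM (SD, n = 3 each), a log2 fold change of 0.25 (SE 0.0698, limma adjusted p = 0.120). Gclm (chromosome 3, 121948475 to 121972902, plus strand) encodes the modifier subunit of glutamate-cysteine ligase, the rate-limiting enzyme of glutathione synthesis, and had the opposite order, with 6.48, 7.41 and 7.25 TPM in WT and 4.49, 6.02 and 4.35 TPM in KO. All 3 KO libraries were lower, KO replicate 2 least so. Its log2 fold change of −0.44 (SE 0.120, limma adjusted p = 0.118) was the furthest from 0 of the 32. The catalytic subunit Gclc was at 1.22 to 1.78 TPM with overlapping groups, and the ratio of Gclm to Gclc in TPM was 4.39 to 6.05 in WT and 2.44 to 3.85 in KO. Gss, glutathione synthetase, was at 2.61, 2.99 and 3.50 TPM in WT and 3.42, 4.17 and 3.27 TPM in KO, which overlapped, at a log2 fold change of 0.20 (SE 0.115, limma adjusted p = 0.336).

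Glutathione reductase (Gsr, chromosome 8, 34762995 to 34808635, plus strand) returns oxidised glutathione to its reduced form with NADPH and was the fifth most abundant of the 37 genes. It was at 804, 781 and 846 TPM in WT and 678, 716 and 757 TPM in KO. The KO libraries were all below the WT libraries, with KO replicate 3 closest to them. This was a log2 fold change of −0.18 (SE 0.0667, limma adjusted p = 0.177). Gsr was 172 to 308 times as abundant as Gss in TPM. Gclm and Gsr were the 2 genes of the list with KO below every WT library.

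The promoter of Slc7a11 is shown because this gene had 1 of the 3 smallest p of the list and holds a repeated element. The amino acid response element, which the stress factor ATF4 binds with a partner, has the core TGATGNAA, and both strands were searched in the RefSeq promoter windows (GRCm38.p6, 250 bases before to 50 after a start site) of the 32 members that have one. The search was chosen after the values were seen. Slc7a11 was the 1 member with a match, and it held 2, starting 66 and 47 bases before the start site on opposite strands (chr3:50443643-50443689, minus strand). Of all 32851 windows 3.97% held the core, and 0.07% held it at least 2 times. Chac1, which encodes an enzyme that degrades glutathione and is not one of the 37, held 1 match (chr2:119351039-119351066, plus strand) and is set beside it, since it had the smallest p of the related genes below. Capitals mark the matches, of which the second in Slc7a11 and the 1 in Chac1 lie on the opposite strand.
Slc7a11: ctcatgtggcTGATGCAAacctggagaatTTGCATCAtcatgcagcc
Chac1: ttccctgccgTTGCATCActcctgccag
A match describes the letters of the window and does not show that a factor binds there. Both genes were picked with their p known, and a part of ATF4 in their levels was not tested. Slc3a2 of the related genes, which encodes the partner chain of the SLC7A11 exchanger, had overlapping groups and a log2 fold change of −0.090.

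Among the peroxiredoxins, thiol peroxidases found in most compartments of the cell, Prdx5 (chromosome 19, 6981187 to 6984596, minus strand) was the most abundant of all 37 genes. Its protein is found in mitochondria, peroxisomes and the cytosol. It was at 2689, 2655 and 2874 TPM in WT and 3078, 3063 and 2980 TPM in KO, with WT replicate 3 nearest to the KO libraries. The means were 2739 ± 118 and 3041 ± 52.7 TPM (SD, n = 3 each), a log2 fold change of 0.15 (SE 0.0568, limma adjusted p = 0.177). Prdx6, which also acts on phospholipids, was at 159 to 218 TPM with overlapping groups, and Prdx5 exceeded it 12.8 to 17.2 times in TPM.

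The other peroxiredoxins were below 10 TPM. Prdx2 (chromosome 8, 87493486 to 87498733, plus strand), a cytosolic form, was at 5.78, 5.01 and 5.37 TPM in WT and 7.28, 6.88 and 6.10 TPM in KO, without overlap, a log2 fold change of 0.28 (SE 0.0911, limma adjusted p = 0.149). Prdx3, the mitochondrial form, was at 7.06, 8.89 and 8.76 TPM in WT and 9.55, 9.36 and 9.87 TPM in KO. Its groups did not overlap either, but WT replicate 1 was well below the other WT libraries, and the log2 fold change was 0.20 (SE 0.0977, limma adjusted p = 0.250). Prdx1, the closest relative of Prdx2, was at 7.32 to 8.09 TPM and Srxn1, sulfiredoxin, which repairs over-oxidised peroxiredoxins, at 3.54 to 4.44 TPM. Both had overlapping groups and log2 fold changes under 0.1. Prdx3, Prdx5 and Prdx2 thus had KO above every WT library, and Prdx1, Prdx6 and Srxn1 did not.

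The thioredoxin system carries electrons from NADPH through thioredoxin reductase to thioredoxin. Txn1 (chromosome 4, 57956245 to 57969283, minus strand), the cytosolic thioredoxin, was at 768, 877 and 849.9 TPM in WT and 974, 951 and 936 TPM in KO. Every KO library was above every WT library, and WT replicate 1 was the lowest. The means were 832 ± 57.1 and 954 ± 19.0 TPM (SD, n = 3 each), a log2 fold change of 0.20 (SE 0.0681, limma adjusted p = 0.155). Its reductase Txnrd1 (chromosome 10, 82296696 to 82360469, plus strand), a selenoprotein, was at 23.2, 24.4 and 26.5 TPM in WT and 28.7, 29.6 and 32.3 TPM in KO. These groups were apart too, at means of 24.7 ± 1.67 and 30.2 ± 1.87 TPM (SD, n = 3 each) and a log2 fold change of 0.28 (SE 0.0820, limma adjusted p = 0.132). Of the mitochondrial pair, Txn2 was at 13.7 to 16.5 TPM with overlapping groups, and Txnrd2 was under the filter. Txnip, which binds and inhibits thioredoxin, was at 568, 553 and 594 TPM in WT and 592, 598 and 678 TPM in KO. WT replicate 3 reached above KO replicate 1, and the log2 fold change was 0.12 (SE 0.0733, limma adjusted p = 0.349).

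**Figure D3:**
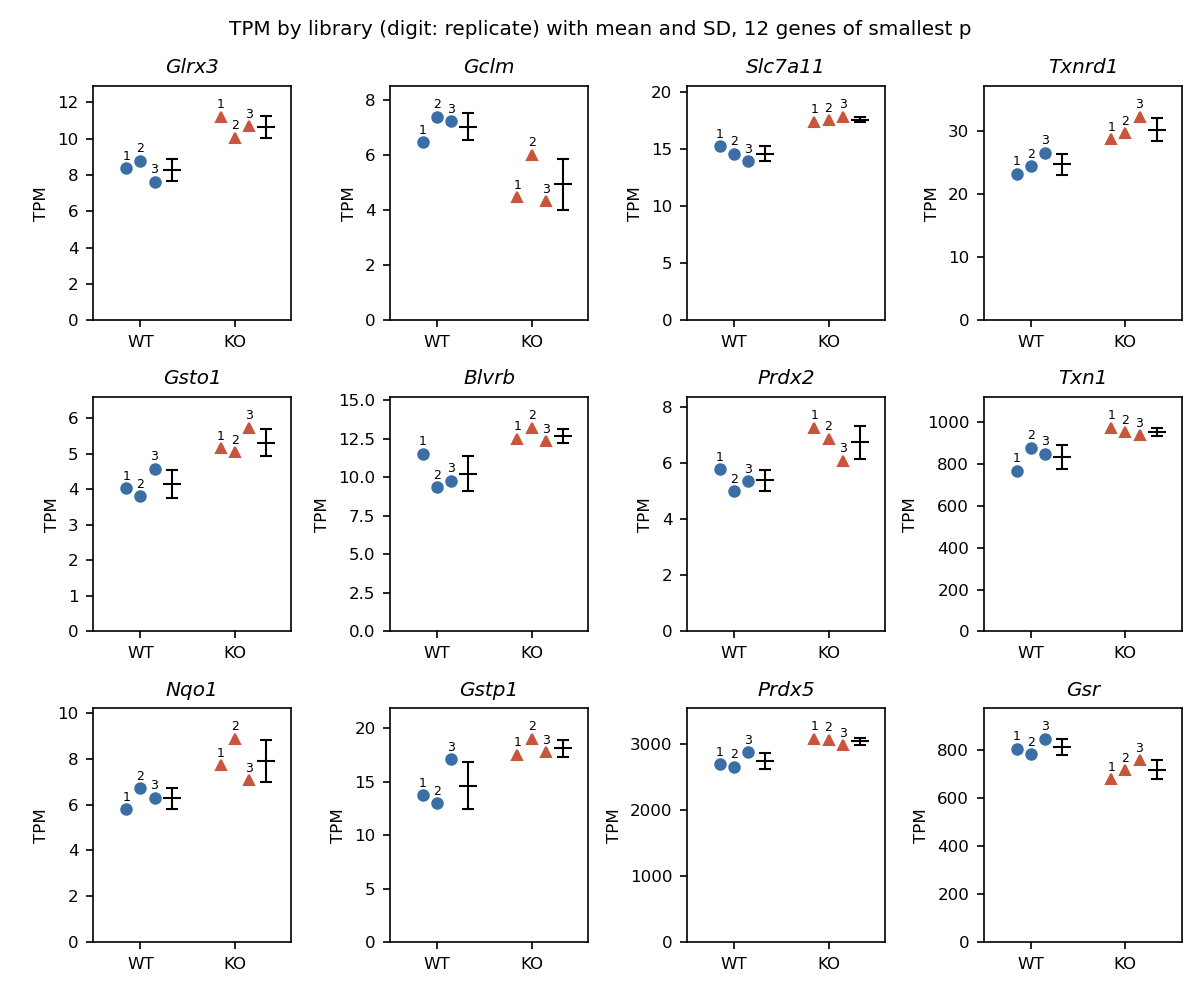
TPM in each library for the 12 genes with the smallest p among the 32, with circles for WT, triangles for KO, digits for the replicate and a black bar for the mean ± SD (n = 3). Each axis starts at 0. KO lies above WT in 10 panels and below it in those of Gclm and Gsr, and no 2 groups overlap.

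Glutaredoxins reduce disulfides and glutathione adducts on proteins, and methionine sulfoxide reductases repair oxidised methionine. Glrx3 (chromosome 7, 144629331 to 144660277, plus strand), a glutaredoxin that handles iron-sulfur clusters in the cytosol, had the smallest p of the 32. It was at 8.38, 8.80 and 7.64 TPM in WT and 11.2, 10.1 and 10.7 TPM in KO, so that all KO libraries were above 10 TPM and all WT libraries below 9 TPM. The means were 8.27 ± 0.589 and 10.7 ± 0.585 TPM (SD, n = 3 each), a log2 fold change of 0.33 (SE 0.0831, limma adjusted p = 0.104).

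Glrx, the general cytosolic glutaredoxin, and Msra were the least even of the 32 genes tested, by their spread on the log2 scale. Glrx was at 334, 153 and 227 TPM in WT and 223, 175 and 180.4 TPM in KO. Msra, which repairs the S form of methionine sulfoxide, was at 331, 189 and 296 TPM in WT and 203, 343 and 292 TPM in KO. In both genes the libraries of a group were far apart and the groups overlapped. Their spread within groups, 0.42 and 0.41 as an SD on the log2 scale, was above that of 97.7% and 97.4% of all genes tested, where the median of the 32 was 0.11. Msrb1, a selenoprotein that repairs the R form, was second in abundance, at 1431, 1619 and 1818 TPM in WT and 1600, 1624 and 1659 TPM in KO. The KO libraries lay inside the WT range.

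Of the genes for quinones and heme, Nqo1 (chromosome 8, 109912125 to 109927106, minus strand), a quinone reductase and a widely used readout of NRF2, was at 5.79, 6.71 and 6.30 TPM in WT and 7.71, 8.87 and 7.07 TPM in KO. The groups did not overlap, KO replicate 3 being closest to WT, at a log2 fold change of 0.29 (SE 0.0996, limma adjusted p = 0.160). Hmox1, heme oxygenase 1, another NRF2 target, was at 51.3, 55.3 and 63.5 TPM in WT and 53.3, 56.7 and 58.4 TPM in KO, with the KO libraries inside the WT range. Blvrb (chromosome 7, 28232997 to 28251163, plus strand), a biliverdin and flavin reductase, was at 11.5, 9.38 and 9.78 TPM in WT and 12.5, 13.2 and 12.3 TPM in KO. All KO libraries were higher, WT replicate 1 being closest to them, and the log2 fold change was 0.29 (SE 0.0920, limma adjusted p = 0.143).

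Glutathione transferases couple glutathione to reactive compounds. The membrane-bound Mgst1 was the most abundant, at 971, 806 and 854 TPM in WT and 924, 764 and 892 TPM in KO, and Mgst2 was at 164 to 199.9 TPM. Both had overlapping groups, and Mgst1 exceeded Mgst2 4.08 to 5.93 times in TPM. The 3 soluble transferases that were tested were far lower, and each had KO above every WT library, while in Gstm5, under the filter, the groups overlapped. Gsto1 (chromosome 19, 47929460 to 47939280, plus strand), of the omega class, was at 4.04, 3.80 and 4.58 TPM in WT and 5.15, 5.04 and 5.73 TPM in KO, a log2 fold change of 0.30 (SE 0.0908, limma adjusted p = 0.138). Gstp1 (chromosome 19, 4035411 to 4037921, minus strand), of the pi class, was at 13.8, 13.0 and 17.1 TPM in WT and 17.5, 19.0 and 17.8 TPM in KO, a log2 fold change of 0.30 (SE 0.108, limma adjusted p = 0.168). WT replicate 3 was just below the lowest KO library. Gstm1, of the mu class, was at 3.69, 3.74 and 4.32 TPM in WT and 4.53, 4.38 and 5.10 TPM in KO, a log2 fold change of 0.21 (SE 0.0914, limma adjusted p = 0.224). The pi and mu classes have near-identical copies between which reads could be split. The sum over Gstp1, Gstp2 and Gstp3 was at most 18.8 TPM in WT and at least 19.7 TPM in KO, also without overlap. Of the 14 genes whose groups did not overlap, Gclm, Prdx5, Prdx2 and Gsto1 overlap a gene on the other strand and Gsr a small RNA gene on its own strand, and whether the counting used strand is not given in the sources used here.

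How far these differences held with other libraries or with library trends removed varied by gene. Without WT replicate 3, 5 of the 32 genes passed an adjusted p of 0.05 in limma, all higher in KO, where 19.6% of all genes tested passed, 12.1% higher in KO. These were Gstp1 (limma adjusted p = 0.0189), Txnrd1 (0.0319), Gsto1 (0.0340), Prdx5 (0.0361) and Glrx3 (0.0474). Without WT replicate 1 or 2, or KO replicate 1, 2 or 3, none passed, where 0.184%, 0.0307%, 0.0205%, 0.153% and 0.0205% of all genes did. Against WT replicate 3 alone, the WT library with a ribosomal share like that of the KO libraries, the log2 fold change of Gstp1 was 0.075 in place of 0.30, that of Prdx5 0.081 in place of 0.15 and that of Gstm1 0.089 in place of 0.21. Gsto1, Txnrd1 and Prdx3 were also nearer to 0, at 0.18, 0.18 and 0.12 in place of 0.30, 0.28 and 0.20. Glrx3, Slc7a11, Blvrb, Gclm and Gsr were further from 0, at 0.43, 0.32, 0.34, −0.48 and −0.24. With the trends of each library with GC content and transcript length removed, 4 of the 32 passed, 3 higher and 1 lower in KO, where 4.9% of the 8769 genes in that fit did, 1.79% higher and 3.11% lower. They were Slc7a11 at 0.31 (limma adjusted p = 0.0291), Glrx3 at 0.37 (0.0338), Txnrd1 at 0.25 (0.0419) and Gsr at −0.20 (0.0420). The log2 fold change of Prdx5 was then 0.00011, that of Blvrb 0.14, that of Gstp1 0.15 and that of Gstm1 0.10. Gclm, the furthest from 0 with all libraries, was at −0.31 in place of −0.44 (limma adjusted p = 0.221). With 1 WT library of a ribosomal share like that of KO, the group and the share cannot be told apart further.

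**Figure D4:**
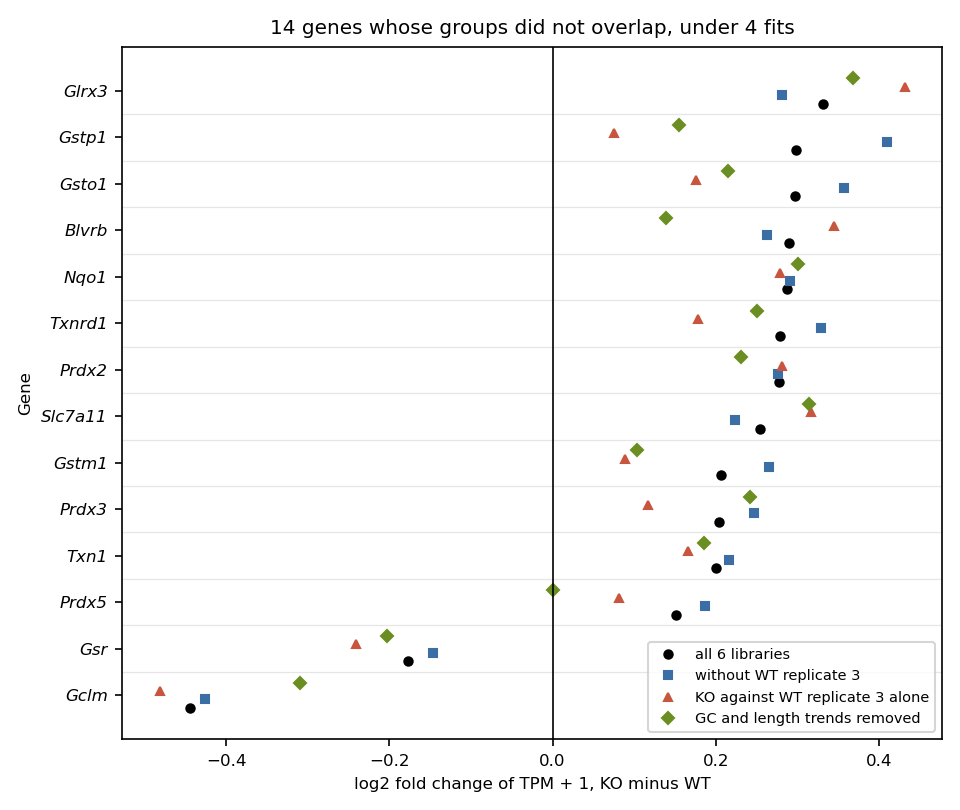
log2 fold change of TPM + 1, KO minus WT, for the 14 genes whose groups did not overlap, from all 6 libraries (circles), without WT replicate 3 (squares), against WT replicate 3 alone (triangles) and with GC and length trends removed (diamonds). All points of Gclm and Gsr lie below 0, those of Glrx3 lie between 0.28 and 0.43, and the diamond of Prdx5 lies at 0.

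Of 10 NRF2 regulators, none passed the adjusted threshold and none had an unadjusted p under 0.05 in limma. Nfe2l2, which encodes NRF2, was at 123, 111 and 119 TPM in WT and 108, 113 and 119 TPM in KO. Keap1 was at 8.66, 7.80 and 9.50 TPM in WT and 8.66, 7.59 and 7.96 TPM in KO, and Bach1, a repressor at the same elements, at 52.3, 41.8 and 42.1 TPM and 48.8, 35.4 and 38.7 TPM. The groups of these 3 genes overlapped. The smallest p was that of Cul3, the ubiquitin ligase scaffold that acts with KEAP1, at a log2 fold change of −0.27 (SE 0.136, limma adjusted p = 0.271).

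The core of the antioxidant response element, TGACNNNGC, was searched on both strands of the same promoter windows. It was found in 7 of the 32 members with a window (21.9%), against 17.2% of the genes tested and 14.0% of all genes with a window. Counted by window, 17.1% of the members' 41 windows held it, against 12.4% of all windows. Stretches around the match in Gclm, Txnrd1, Prdx1, Sod1 and Mgst1 are shown because these genes share the core and differ in how KO stood to WT. KO was below WT in Gclm and above it in Txnrd1, and the groups overlapped in Prdx1, Sod1 and Mgst1. Gstm5 and Srxn1 also held a match. Capitals mark the match, which lies on the opposite strand in all 5.
Gclm: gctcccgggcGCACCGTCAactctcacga
Txnrd1: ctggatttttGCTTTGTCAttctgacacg
Prdx1: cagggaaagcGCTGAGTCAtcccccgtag
Sod1: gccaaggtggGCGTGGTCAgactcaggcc
Mgst1: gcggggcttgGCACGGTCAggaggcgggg
They lie at chr3:122245413-122245441 for Gclm, chr10:82859104-82859132 for Txnrd1 (1 of its 3 start sites), chr4:116685456-116685484 for Prdx1, chr16:90220696-90220724 for Sod1 and chr6:138140461-138140489 for Mgst1, on the plus strand of GRCm38.p6, with the match beginning 134, 92, 133, 56 and 56 bases before the start site. No match in the others, Nqo1 and Slc7a11 among them, says only that these letters are not in these windows.

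Genes around the pathway were counted in 6 lists, together 89 genes, of which 71 were tested. None passed an adjusted p of 0.05 in limma, and 14 (19.7%) had an unadjusted p under 0.05, 10 higher and 4 lower in KO, against the 23.5% of all genes. In 22 (31.0%) the groups did not overlap, 14 with KO higher and 8 with KO lower, against 29.7%. The median log2 fold change was 0.024. By direction, 19.7% did not overlap with KO higher and 11.3% with KO lower, against 17.4% and 12.3%.

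For each list other than the NRF2 regulators, the gene with the smallest p is given here. Pgd, Cyba and Cybb were added after their values were seen. None of these genes passed the adjusted threshold. Chac1, the glutathione-degrading enzyme, was at 3.30, 3.14 and 3.61 TPM in WT and 4.45, 5.34 and 5.05 TPM in KO, a log2 fold change of 0.45 (SE 0.0907, limma adjusted p = 0.0765). Of the enzymes that make NADPH, Idh2, the mitochondrial isocitrate dehydrogenase, was at 0.911, 0.888 and 1.18 TPM in WT and 1.52, 1.89 and 1.70 TPM in KO (0.44, limma adjusted p = 0.0892). The WT mean of Idh2 was 0.992 TPM, so this gene passed the filter of 1 TPM only through the KO libraries. At this level the log2(TPM + 1) scale understates the change. The abundant Pgd of the pentose phosphate pathway was lower in every KO library, at 1139, 1154 and 1223 TPM in WT and 1014, 1040 and 1084 TPM in KO (−0.16, limma adjusted p = 0.171). Glrx5, a mitochondrial glutaredoxin, and Eefsec, the elongation factor for selenocysteine, had log2 fold changes of 0.35 (SE 0.10, limma adjusted p = 0.128) and 0.38 (SE 0.117, limma adjusted p = 0.138). Of the phagocyte NADPH oxidase, which makes the superoxide, Ncf1 was lower in every KO library, at 1176, 1161 and 1288 TPM in WT and 994, 1025 and 1093 TPM in KO, a log2 fold change of −0.22 (SE 0.0685, limma adjusted p = 0.141). The membrane subunits of the oxidase differed in direction. Cyba was higher, at 1481, 1612 and 1660 TPM in WT and 1871, 1857 and 1743 TPM in KO (0.20, limma adjusted p = 0.149). Cybb was lower in every KO library, at 944, 911 and 889 TPM in WT and 830, 855 and 884 TPM in KO (−0.095, limma adjusted p = 0.354).

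**Figure D5:**
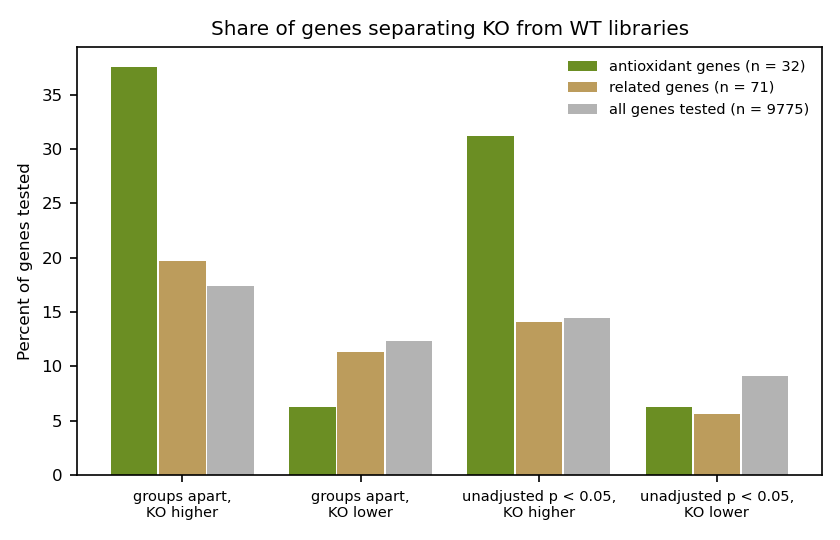
Percent of genes tested whose KO and WT libraries did not overlap, or whose unadjusted p in limma was under 0.05, by direction, with all 6 libraries, for the 32 antioxidant genes, 71 related genes and all 9775 genes. For KO higher without overlap the antioxidant genes stand at 37.5%, the related genes at 19.7% and all genes at 17.4%.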

How the data were processed

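The authors deposited 1 table of TPM for the 6 libraries, scaled to a fixed total over the genes listed. Per the methods, reads were aligned to mm9 and quantified with the DESeq2 pipeline; the tool that gave TPM is not given in the sources used here. The labels name a Percoll gradient and an mRNA kit, and the methods name a sort for CD11b and Ly6G and a stranded total RNA kit with single-end reads. A table of read statistics that the authors deposited gives counts of reads, percent of reads by class, a ratio for the bias at transcript ends, a coverage variation score and insert sizes; it lists 94-base paired-end reads, of which 99.4% to 99.5% were on the expected strand.

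The 9775 genes that averaged 1 TPM or more were compared on log2(TPM + 1) by limma (version 3.58.1; R 4.3.3), whose variance prior followed the mean level, with no covariate and Benjamini-Hochberg adjustment over all of them, since TPM hold no counts for a count test. Single values were compared with exact permutation tests in SciPy 1.17.1. Tested on simulated data for these 9775 genes, with noise independent between genes, the fit recovered 41% of log2 changes of 0.5 and 89% of those of 1. Transcript length and GC content came from GENCODE M1 (NCBIM37, the mm9 assembly), which gave 89.7% of the genes tested a value; gene positions are of that build. Promoter windows are from RefSeq (GRCm38.p6), in which 32 of the 37 members had an entry; Gclc, Gsr, Hmox1, Msra and Prdx6 did not.

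The members, the gene lists and the alternatives were chosen with earlier results of these data known. A gene of the erythroid list is not reported here and was left out of its sum. Values in every library are given for the 16 members with the smallest p and the 8 most abundant, and Hmox1, Glrx, Gpx1 and Sod1 were added after their values were seen. In the related lists, the gene with the smallest p is named, and Nfe2l2, Keap1, Bach1, Pgd, Cyba, Cybb and Slc3a2 were added in the same way. The alternatives were another pseudocount, filter, scaling or model, a replicate block, each library left out, WT replicate 3 as the only WT library, the ribosomal share as a covariate and subtraction of each library's trends with GC content and length.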

Additional observations from a re-analysis of the deposited data

How the results depend on the processing

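None of the 16 members with the smallest p changed direction in any of the 16 alternatives that gave it a value (253 values). They were picked by p in the same libraries, so a kept direction is no independent support. Prdx5 counts as kept at a log2 fold change of 0.00011 with GC and length trends removed. In 9 of the 253 a member passed an adjusted p of 0.05, all without WT replicate 3 or with GC and length trends removed. The number of members called, 0 with all libraries, ranged from 0 to 5 as each library was left out, with 5 without WT replicate 3, and was 4 with the trends removed. For related genes it ranged from 0 to 14, with 14 without WT replicate 3, and was 2 with the trends removed. Members with an unadjusted p under 0.05, 10 higher and 2 lower in KO, ranged from 4 to 13 higher and 1 to 3 lower as each library was left out, were 4 and 5 against WT replicate 3 alone, and included 1 lower without the mean-variance trend. The median log2 fold change of the members, 0.085 (0.040 over all genes), was 0.043 with a mean of at least 5 TPM (0.020), 0.046 with median-ratio scaling (0.0032), 0.12 with rescaled TPM (0.069) and 0.044 with the trends removed (−0.00011). It ranged from 0.063 to 0.12 as each library was left out. The number of all genes called, 52, was 1920 without WT replicate 3, 18 without WT replicate 1, 3 without WT replicate 2, 2 without KO replicate 1, 15 without KO replicate 2 and 2 without KO replicate 3. It was 3 with no filter, 29 with a mean of at least 5 TPM, 96 when TPM were rescaled without mitochondrial and the 20 most abundant genes (71.9% higher against 50%), 6 with the ribosomal share as a covariate, 6 against WT replicate 3 alone, where the lone WT library is assumed to vary like the KO libraries, and 430 with the trends removed (36.5% higher). Samples with the same number shared only that number. Their deviations from the group means correlated at 0.23, −0.0075 and 0.13. WT replicates 1 and 3 correlated best with the KO library of the same number, and WT replicate 2 with KO replicate 3, at 0.022. With the replicate block 4 genes were called in all and 0 members. The causes were not tested. Total reads per library are given above, but the reads behind each gene cannot be judged from TPM.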
